A study of Ovis aries with 9 samples.

Results

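The receptors through which the sheep ovary is read by gonadotropins, sex steroids, glucocorticoids, prolactin and growth hormone are described here in whole ovaries of Han BB, Han ++ and Dorset ewes. The set was fixed by name and holds 9 genes: FSHR, LHCGR, ESR1, ESR2, PGR, PGRMC1, NR3C1, GHR and PRLR. Of these, 8 were matched to 11 of the 27174 rows of the gene count table, and no row was matched to PRLR, which was not analysed here. PGR and PGRMC1 stood in the table under gene numbers (LOC443444 and LOC101106311), and PGR, NR3C1 and GHR had 2 rows each.

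The samples were ovaries of 9 adult ewes, 3 per group, with 1 RNA-Seq library per ewe. Han BB ewes were Small Tail Han sheep homozygous for the FecB allele (FecBBFecBB) of BMPR1B, a receptor for bone morphogenetic proteins that is tied to litter size in this breed. Han ++ ewes were Small Tail Han sheep without that allele (FecB+ FecB+), and the Dorset ewes (D4, D5 and D6, genotype given as wild type) were the low-fecundity control group. The Han BB ewes were W1, W2 and W4, and the Han ++ ewes were W6, W7 and W8. All 3 groups were synchronized in the same way, with a progestagen (fluorogesterone acetate) sponge followed by pregnant mare serum gonadotropin. They were killed within a window of hours after a further, spontaneous estrus was detected, so ewes may differ in stage within that window. Breed and FecB genotype cannot be told apart in Han BB vs. Dorset, and each group was 3 animals of a single farm.

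FSHR and LHCGR are receptors on the cell surface that raise cyclic AMP when follicle-stimulating hormone or luteinizing hormone binds. In the ovary, FSHR is known from granulosa cells, whereas LHCGR is known from theca cells, from granulosa cells of large follicles and from luteal cells. ESR1, ESR2, PGR and NR3C1 are nuclear receptors that bind estradiol, progesterone or glucocorticoids and then act on DNA. PRLR and GHR are cytokine-type receptors that signal through JAK2 and STAT5. Whole ovaries mix all of these cells, so fewer cells of a type and less receptor RNA per cell cannot be told apart in any of the values that follow.

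The libraries held 10803913 (W8) to 20992535 (W7) counted reads, and all 8 measured receptors passed the filter on low counts, as did 16871 rows in all. Levels are given as CPM, which are counts scaled to a common library size with TMM factors. A level was not compared between genes, since CPM does not correct for transcript length. Libraries W4 (Han BB) and D6 (Dorset) stood apart from their own groups: they correlated best with each other (Spearman's rho 0.978 across genes, against at most 0.931 and 0.949 with libraries of their own group). They were not alone in this: D4 was nearest to W2 (0.956, against at most 0.933 in its own group), D5 to W7 (0.962 and 0.949) and W1 to W6 (0.978 and 0.971). W4 and D6 lay at -107 and -103 on the first principal component, which held 41.3% of the variance, and D4 lay at the other end, at 118. Ovarian identity was checked with marker lists, and summed oocyte markers were at 8.1 to 23.9 CPM and granulosa markers at 94.2 to 377 CPM in every library, with no row for FOXL2 matched. A single uncharacterized gene, LOC101101865, took 14.9% of the reads of D4 and 7.69% of those of W8, but 0.0107% of those of D6.

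No receptor passed the threshold (an adjusted p of less than 0.05 with a change of more than 1.5-fold in either direction, by edgeR's quasi-likelihood test) in any of the 3 comparisons. Over all tested genes, the same rule called 0% in Han BB vs. Dorset, 0.00593% in Han ++ vs. Dorset and 0% in Han BB vs. Han ++. At an unadjusted p under 0.05, edgeR and DESeq2 each counted 0 of the 8 receptors in every comparison, where the shares over all genes were 4.99%, 5.27% and 1.97% in edgeR and 5.4%, 4.63% and 2.21% in DESeq2. limma counted 1 (GHR) in Han BB vs. Dorset, 0 in Han ++ vs. Dorset and 1 (LHCGR) in Han BB vs. Han ++, where its shares over all tested genes were 11.5%, 9.78% and 7.26%, and it also called 0 receptors. The 3 comparisons share their groups, so they are not independent of each other.

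**Figure D1:**
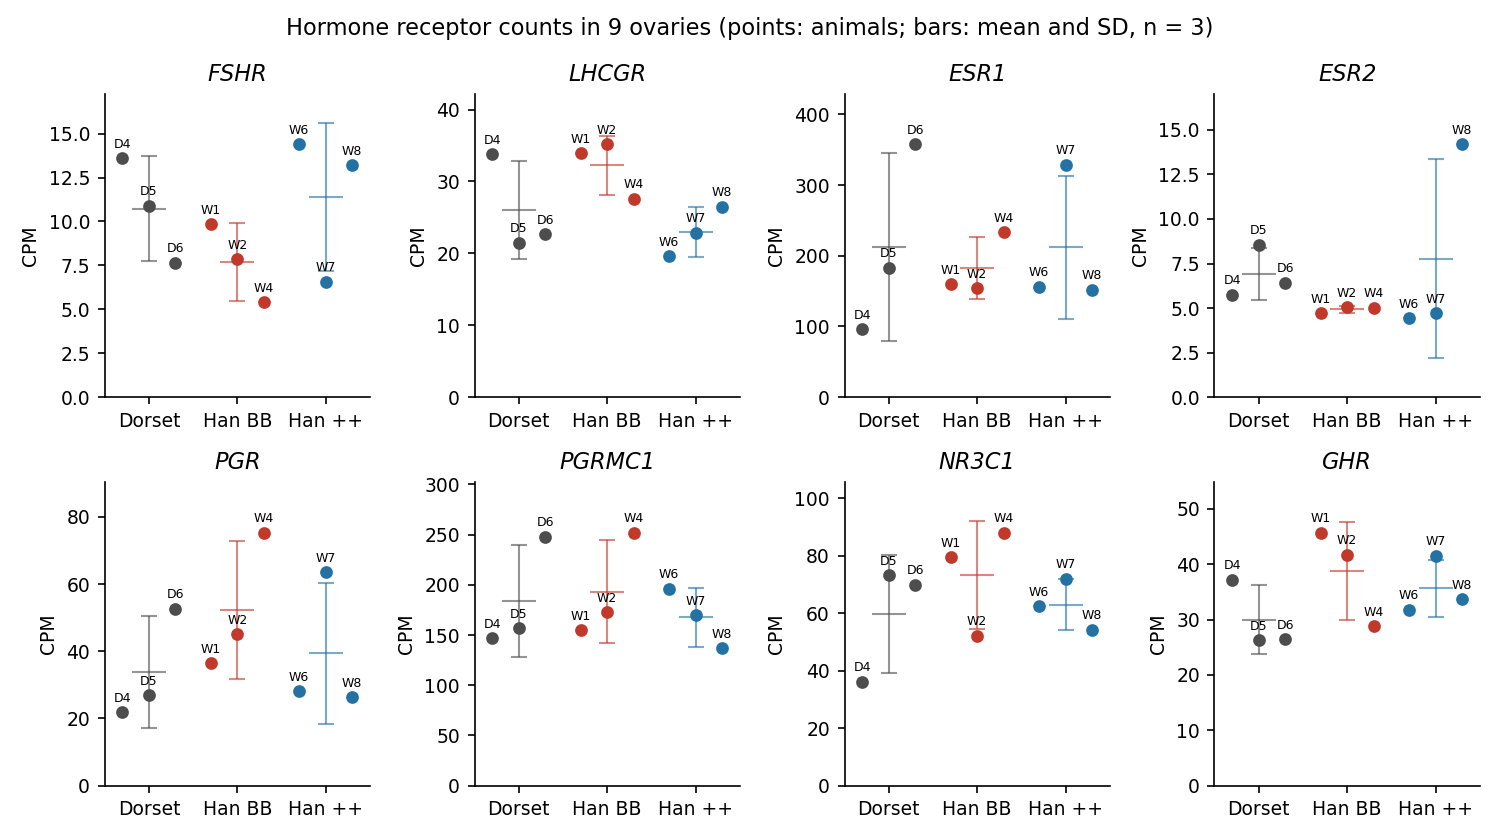
CPM (y axis, from 0) of 8 hormone receptors in the ovaries of 9 ewes, in groups of 3 (Dorset, Han BB, Han ++). Points are animals, and bars give the mean and SD of each group (n = 3); LHCGR of the 3 Han BB ewes, at 27.6 to 35.2 CPM, lay above the 3 Han ++ ewes, at 19.6 to 26.5 CPM, whereas ESR1 varied from 96.1 to 358 CPM within the Dorset group alone.

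FSHR, the receptor for follicle-stimulating hormone, was counted at 13.6, 10.9 and 7.65 CPM in Dorset ewes D4, D5 and D6. It was at 9.83, 7.85 and 5.42 CPM in Han BB ewes W1, W2 and W4, and at 14.4, 6.56 and 13.2 CPM in Han ++ ewes W6, W7 and W8. The Han BB group was the lowest on average, at 7.70 ± 2.21 CPM (SD, n = 3) against 10.7 ± 2.99 in Dorset and 11.4 ± 4.22 in Han ++, but its range overlapped with both. The log2 fold change was -0.47 (SE 0.39, 95% interval -1.34 to 0.39) in Han BB vs. Dorset and -0.56 (-1.42 to 0.30) in Han BB vs. Han ++. Han ++ and Dorset were closest, with a log2 fold change of 0.09 (-0.77 to 0.94), a value that became -0.14 without W6. The spread within the Han ++ group, from 6.56 to 14.4 CPM, was wider than any gap between group means. These values rest on 81 (W4) to 302 (W6) reads.

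LHCGR, the receptor for luteinizing hormone, was at 33.8, 21.5 and 22.7 CPM in Dorset ewes D4, D5 and D6. In the Han BB ewes it was at 33.9 (W1), 35.2 (W2) and 27.6 CPM (W4), and in the Han ++ ewes at 19.6 (W6), 22.9 (W7) and 26.5 CPM (W8). The lowest Han BB ewe thus lay above the highest Han ++ ewe, and the means were 32.2 ± 4.11 CPM (SD, n = 3) and 23.0 ± 3.48 CPM. LHCGR was the only receptor whose 2 Han groups did not overlap, and 9.38% of all tested genes did not overlap in the same comparison. The log2 fold change was 0.49 (SE 0.27, 95% interval -0.12 to 1.09), with an unadjusted p of 0.104 and an adjusted p of 0.999 in edgeR. limma gave 0.62, with an unadjusted p of 0.00881 and an adjusted p of 0.646. The value was 0.58 without W4 and D6, and its range over all the alternatives tried was 0.40 to 0.62. Dorset (26 ± 6.78 CPM) lay between both Han groups. Han BB vs. Dorset had a log2 fold change of 0.31 (-0.29 to 0.92), and Han ++ vs. Dorset of -0.17 (-0.78 to 0.43). D4 was the only Dorset ewe within the Han BB range, and without it the former value was 0.54 (unadjusted p 0.082, adjusted p 0.723, edgeR).

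Because FSHR was lowest and LHCGR highest on average in Han BB, the reads of the 2 receptors were also set against each other within each library, a comparison chosen after the values were seen. LHCGR reads per FSHR read were 2.48, 1.97 and 2.96 in Dorset (D4, D5, D6), 3.45, 4.49 and 5.09 in Han BB (W1, W2, W4), and 1.36, 3.50 and 2.01 in Han ++ (W6, W7, W8). All 3 Han BB ewes lay above all 3 Dorset ewes, while W7 of the Han ++ group lay just above W1. The difference in log2 ratio was 0.82 in Han BB vs. Dorset, with a two-sided exact permutation p of 0.1, the smallest that 3 against 3 animals can give. It was 1.01 in Han BB vs. Han ++ (exact permutation p = 0.2) and -0.20 in Han ++ vs. Dorset (exact permutation p = 0.7). Adjusted over the 9 comparisons made of 3 ratios, both Han BB differences had an exact permutation p of 0.45. The ratio is free of library size, but not of the cell makeup of the ovary.

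**Figure D2:**
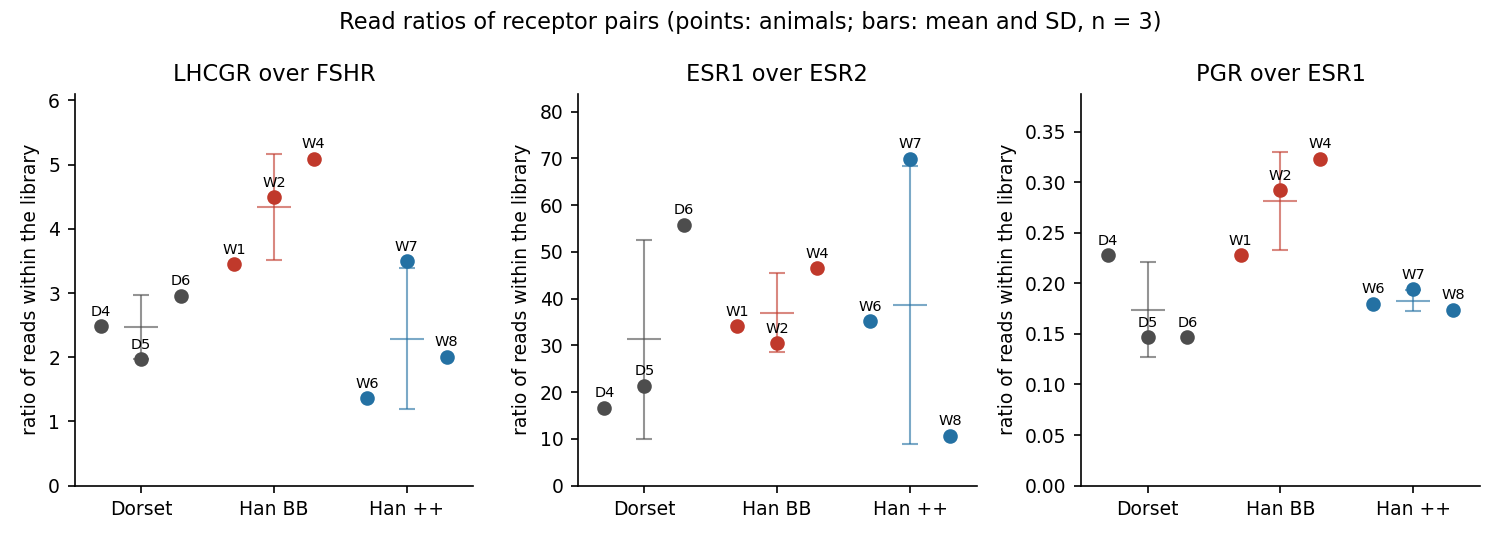
Ratio of reads of 2 receptors within each library (y axes, from 0), for LHCGR over FSHR, ESR1 over ESR2 and PGR (main row only) over ESR1. Points are animals, and bars give the mean and SD per group (n = 3); LHCGR over FSHR was 3.45 to 5.09 in the Han BB ewes and 1.97 to 2.96 in the Dorset ewes.

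ESR1, the estrogen receptor known from stroma, theca and epithelium of the ovary and from the oviduct, was at 96.1, 183 and 358 CPM in Dorset ewes D4, D5 and D6. It was at 160, 154 and 233 CPM in Han BB (W1, W2, W4) and at 156, 329 and 152 CPM in Han ++ (W6, W7, W8). Each group held a ewe that was clearly higher than its other members (D6, W4 and W7), and the groups overlapped. The Dorset and Han ++ means were both 212 CPM (SD 134 and 101, n = 3), and the Han BB mean was 182 ± 44.0. The log2 fold change was -0.22 (95% interval -1.27 to 0.83) in Han BB vs. Dorset, 0.00 (-1.05 to 1.05) in Han ++ vs. Dorset and -0.22 (-1.27 to 0.83) in Han BB vs. Han ++. These values followed single animals: Han ++ vs. Dorset was 0.60 without D6 and -0.49 without W7. Han BB vs. Dorset turned to 0.40 without D6.

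ESR2, the estrogen receptor typical of granulosa cells, was at 4.70, 5.04 and 5.02 CPM in Han BB ewes W1, W2 and W4. It was at 5.74, 8.56 and 6.42 CPM in Dorset ewes D4, D5 and D6, so all 3 Dorset ewes lay above the Han BB ewes. In Han ++ it was at 4.44 (W6) and 4.70 CPM (W7), as low as in Han BB, and at 14.2 CPM in W8, the highest value of the 9 libraries. ESR2 was the only receptor that did not overlap between Han BB and Dorset, a comparison in which 8.79% of all tested genes did not overlap. The log2 fold change was -0.49 (SE 0.46, 95% interval -1.51 to 0.52), with an unadjusted p of 0.307 and an adjusted p of 0.997 in edgeR. Han BB vs. Han ++ was -0.65 (-1.67 to 0.37) with W8 and 0.09 without it. Han ++ vs. Dorset was 0.16 (-0.85 to 1.16) with W8 and -0.58 without it. The counts were low, from 59 (D4) to 190 reads (D5). The Han BB SD of 0.192 CPM was the smallest of the 3 groups, against 1.47 in Dorset and 5.55 in Han ++.

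ESR1 reads per ESR2 read, chosen as a second ratio after the values were seen, spanned 10.7 (W8) to 69.9 (W7) within the Han ++ group. They were 16.7, 21.4 and 55.8 in Dorset (D4, D5, D6) and 34.1, 30.5 and 46.5 in Han BB (W1, W2, W4). Both Han ++ extremes lay outside all other libraries, and the exact permutation p was 0.5 for Han BB vs. Dorset and 0.9 for the other comparisons (n = 3 per group).

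PGR, the nuclear progesterone receptor that the surge of luteinizing hormone induces in granulosa cells before ovulation, was at 21.9, 26.9 and 52.7 CPM in Dorset ewes D4, D5 and D6 on its main row. It was at 36.5, 45.0 and 75.3 CPM in Han BB (W1, W2, W4) and at 28.1, 63.6 and 26.4 CPM in Han ++ (W6, W7, W8). Han BB had the highest mean, 52.2 ± 20.4 CPM (SD, n = 3), followed by Han ++ at 39.4 ± 21 and Dorset at 33.8 ± 16.5, and all groups overlapped. In Han BB vs. Dorset the log2 fold change was 0.63 (SE 0.45, 95% interval -0.37 to 1.62, unadjusted p 0.195, adjusted p 0.996, edgeR). Here too, single animals set the size: the value was 1.11 without D6 (unadjusted p 0.038, adjusted p 0.531), 0.24 without W4 and 0.72 without both. Han ++ vs. Dorset was 0.22 (-0.77 to 1.21), and turned to -0.33 without W7. Han BB vs. Han ++ was 0.41 (-0.59 to 1.40), and was 0.96 without W7 and 0.03 without W4.

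PGR is a known target gene of ESR1, and another ratio set its reads against those of ESR1 in the same library. PGR reads per ESR1 read were 0.228, 0.147 and 0.147 in Dorset (D4, D5, D6), 0.228, 0.292 and 0.323 in Han BB (W1, W2, W4), and 0.180, 0.194 and 0.174 in Han ++ (W6, W7, W8). The Han BB ewes lay above all Han ++ ewes, and D4 was level with W1. Only the main PGR row entered this ratio. The second row, whose share of PGR reads was largest in W8 (19.6%) and D4 (17.0%), was left out. It held 46 reads in D4, beside 987 of ESR1, and 43 in W1, beside 3378 of ESR1. Adding it would thus place D4 above W1, and the ratio with both rows was not tested. The log2 ratio differed by 0.61 in Han BB vs. Han ++ (exact permutation p = 0.1, the smallest possible, n = 3 per group) and by 0.71 in Han BB vs. Dorset (exact permutation p = 0.2). Both had an exact permutation p of 0.45 after adjustment over the 9 comparisons.

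The second PGR row (LOC443444.1) carried 16 to 70 reads per library, and its share of all PGR reads varied between libraries. The share was 17.0% in D4 (95% exact binomial interval 12.7 to 22.0%) and 19.6% in W8 (15.6 to 24.1%), the libraries with the lowest main-row level of their groups. It was 9.51% in W6, 5.30% in W1, 5.59% in W2 and 3.57% in W7. In D5, D6 and W4 it was 2.61%, 1.67% and 1.66%. D4 and W8 were also the libraries with the largest shares of LOC101101865, and the part of that in this split was not tested. The intervals cover counting error only, and how the authors' counting divided reads between rows of the same name is not given in the sources used here. On its own, the second row had log2 fold changes of 0.01 (95% interval -1.61 to 1.62) in Han BB vs. Dorset, 0.97 (-0.66 to 2.61) in Han ++ vs. Dorset and -0.96 (-2.59 to 0.66) in Han BB vs. Han ++, the last opposite in sign to the main row. With both rows summed, the log2 fold change of PGR was 0.60 in Han BB vs. Dorset and 0.32 in Han BB vs. Han ++.

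**Figure D3:**
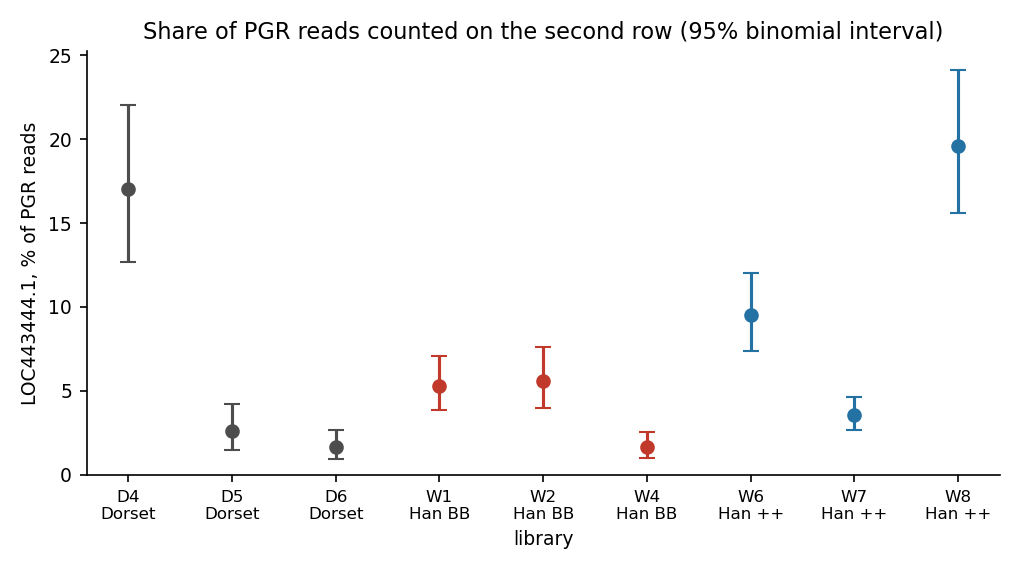
Share of PGR reads that were counted on the second row, LOC443444.1 (y axis, percent, from 0), in each of the 9 libraries. Points are shares and bars are 95% exact binomial intervals, which cover counting error only; D4 at 17.0% and W8 at 19.6% stood above the other 7 libraries, which lay between 1.66% and 9.51%.

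PGRMC1, a heme-binding membrane protein tied to progesterone action in granulosa cells, was at 147, 157 and 248 CPM in Dorset (D4, D5, D6), 155, 173 and 252 CPM in Han BB (W1, W2, W4) and 196, 170 and 137 CPM in Han ++ (W6, W7, W8). The 2 highest libraries were W4 and D6, and the groups overlapped. Its log2 fold changes were 0.07 (95% interval -0.62 to 0.77) in Han BB vs. Dorset, -0.13 (-0.83 to 0.56) in Han ++ vs. Dorset and 0.21 (-0.49 to 0.90) in Han BB vs. Han ++. The direction of each of the 3 turned under at least 1 alternative.

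NR3C1, the glucocorticoid receptor, was at 36.2, 73.2 and 70.0 CPM in Dorset (D4, D5, D6), 79.6, 52.2 and 88.1 CPM in Han BB (W1, W2, W4) and 62.4, 72.1 and 54.3 CPM in Han ++ (W6, W7, W8). D4 was the lowest and W4 the highest of the 9 libraries. The log2 fold changes were 0.29 (-0.42 to 1.01) in Han BB vs. Dorset, 0.07 (-0.64 to 0.79) in Han ++ vs. Dorset and 0.22 (-0.50 to 0.94) in Han BB vs. Han ++. A second NR3C1 row held 0 to 14 reads and was not tested.

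GHR, the growth hormone receptor, was at 37.2, 26.3 and 26.5 CPM in Dorset (D4, D5, D6), 45.7, 41.7 and 28.8 CPM in Han BB (W1, W2, W4) and 31.8, 41.5 and 33.7 CPM in Han ++ (W6, W7, W8). It had the narrowest range of the 8 receptors, 1.74-fold between the highest and the lowest library. Han BB was the highest on average (38.7 ± 8.81 CPM, SD, n = 3), before Han ++ (35.7 ± 5.14) and Dorset (30.0 ± 6.24), and all 3 overlapped. The log2 fold change in Han BB vs. Dorset was 0.37 (95% interval -0.24 to 0.98, unadjusted p 0.207, adjusted p 0.996, edgeR). limma gave 0.61 for it (unadjusted p 0.0349, adjusted p 0.409), the lowest adjusted p of any receptor under any alternative. Han ++ vs. Dorset was 0.25 (-0.36 to 0.86) and Han BB vs. Han ++ was 0.12 (-0.49 to 0.73). A second GHR row held 0 to 6 reads and was not tested.

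By count, 5 of the 8 receptors were above 0 and 3 below 0 on the log2 scale in each comparison, and 50.6%, 55.9% and 46.6% of all tested genes were below 0. The median log2 fold change over the 8 was 0.18 in Han BB vs. Dorset, 0.08 in Han ++ vs. Dorset and 0.16 in Han BB vs. Han ++, and over all tested genes it was -0.01, -0.06 and 0.04. FSHR, ESR1 and ESR2 were the 3 below 0 in both comparisons of Han BB. Receptors that did not overlap between groups numbered 1, 0 and 1 of 8, where the share over all genes was 8.79%, 11.1% and 9.38%.

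**Figure D4:**
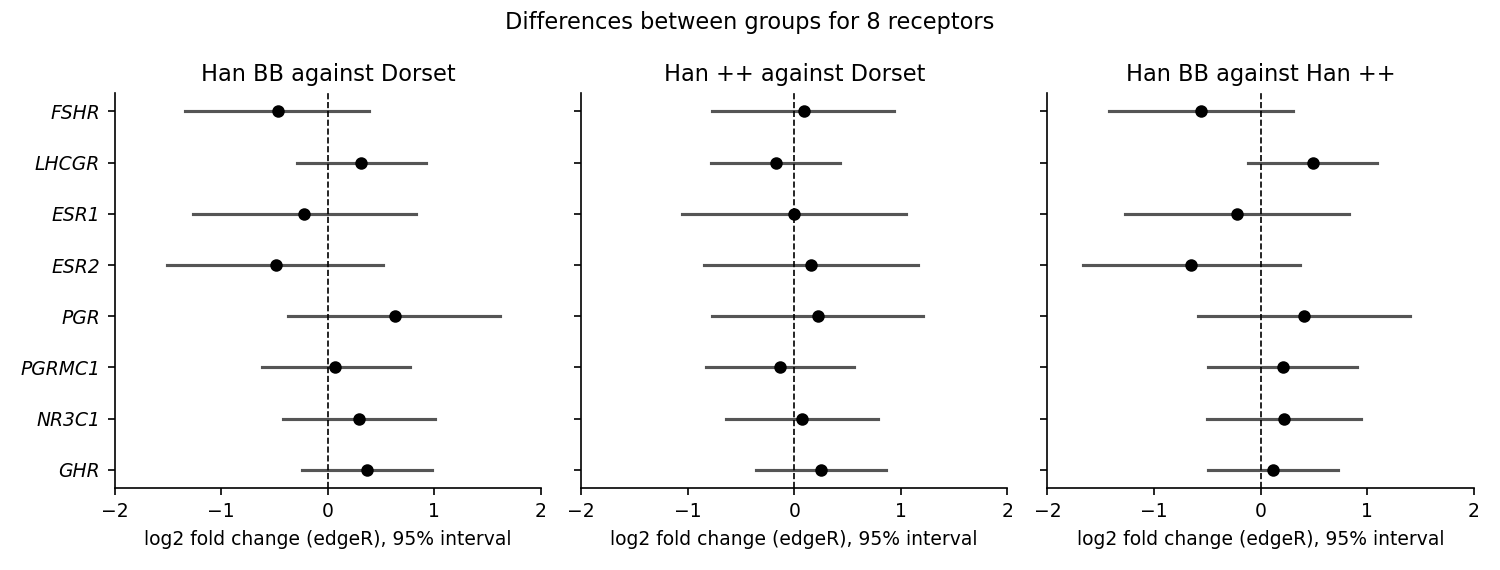
Log2 fold change (x axis) of 8 receptors in Han BB against Dorset, Han ++ against Dorset and Han BB against Han ++, from edgeR. Points are estimates and bars 95% intervals, dashed lines mark no difference, and all 24 intervals include 0.

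The variation between animals had an order that crossed the groups. ESR1 was highest in D6, W7 and W4, 1 ewe of each group, and PGR was highest in the same 3 libraries, at 75.3 (W4), 63.6 (W7) and 52.7 CPM (D6). FSHR was lowest in these 3, at 5.42 (W4), 6.56 (W7) and 7.65 CPM (D6), although W2 followed closely at 7.85. D6, W4 and W7 were also the 3 lowest libraries on the first principal component of all genes, with W7 at -32.4. At the other end, D4, at 118 on that component, had the lowest ESR1, PGR and NR3C1 of all. The part of this shared order in the receptor differences was not tested beyond leaving out W4 and D6 or adding a term for them.

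**Figure D5:**
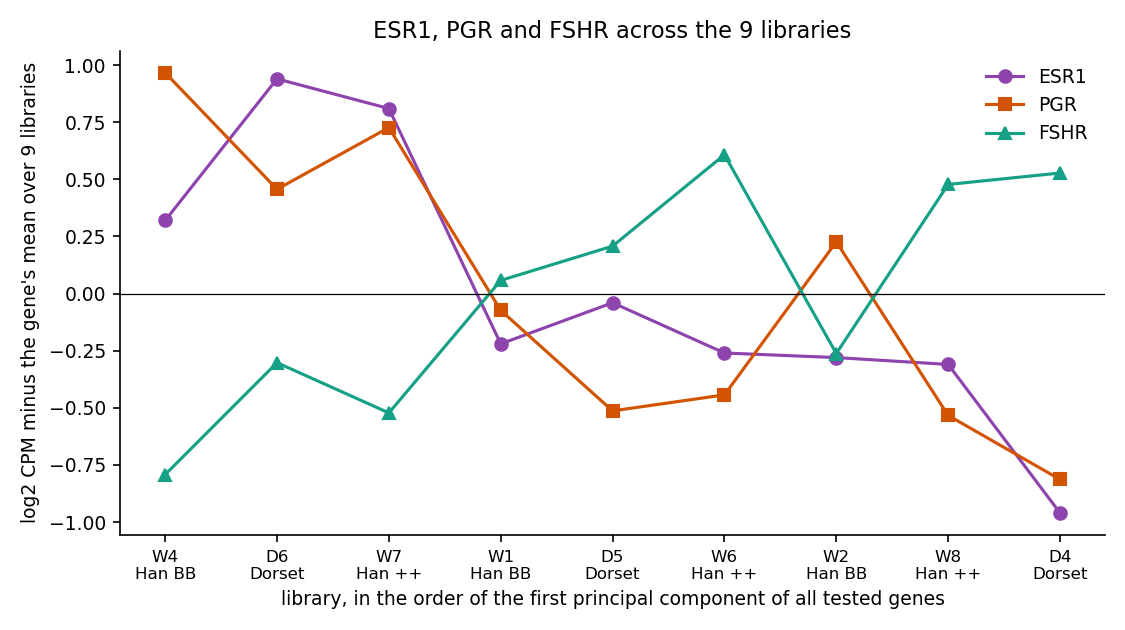
Log2 CPM of ESR1, PGR and FSHR (y axis, each centred on its own mean over 9 libraries), with the libraries in the order of the first principal component of all tested genes (x axis). ESR1 and PGR were above their means and FSHR below its mean in W4, D6 and W7, which come from the 3 different groups; lines join points of a gene for reading only.

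The receptors differed in how much they varied. PGR, ESR1 and ESR2 had the largest SD of log2 CPM over the 9 libraries (0.63, 0.60 and 0.54), with FSHR at 0.50. NR3C1 had 0.39, LHCGR and PGRMC1 had 0.32 each and GHR had 0.30. Set among all tested genes, these SDs lay between the percentile 59.6 (PGR) and the percentile 13.6 (GHR). The ratio of the highest to the lowest library was 3.73 for ESR1, 3.44 for PGR, 3.20 for ESR2, 2.66 for FSHR, 2.43 for NR3C1, 1.84 for PGRMC1 and 1.80 for LHCGR.

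For the 4 most variable receptors, the genes with the most similar profile were found by the root mean square gap between centred log2 CPM values over the 9 libraries, among 13908 named genes. For ESR1 these were HPGD, which encodes a prostaglandin-degrading dehydrogenase (gap 0.19), MYO5B (0.25) and AHNAK (0.25), against a median gap of 0.73 over all candidates. HPGD was at 2.14, 6.18 and 10.6 CPM in D4, D5 and D6, at 4.03, 4.76 and 6.89 in W1, W2 and W4, and at 3.67, 8.41 and 3.78 in W6, W7 and W8, and so shared the 3 highest and the lowest library with ESR1. For PGR they were USP45 (0.22), BCHE (0.25) and LACC1 (0.26), with a median gap of 0.76. For FSHR they were MAP4K1 (0.15), ANGEL1 (0.20) and DNTTIP1 (0.21), with a median gap of 0.68. MAP4K1, a kinase known from blood cells, was lowest in W4, W7 and D6 (1.67, 1.76 and 1.79 CPM), as FSHR was. For ESR2 they were CARD10 (0.23), POLR1B (0.26) and FARSA (0.27), with a median gap of 0.71, and all 3 had their highest level in W8 (18.9, 46.7 and 35.2 CPM). The points share library, depth and animal, and the closeness is a description only.

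Among other hormone receptors, 17 of 21 listed genes had a row and 14 passed the filter, and none was called in any comparison. NR3C2, the mineralocorticoid receptor, was at 25.1, 33.0 and 39.8 CPM in Dorset (D4, D5, D6), 34.7, 28.2 and 33.1 in Han BB (W1, W2, W4) and 20.8, 23.6 and 14.7 in Han ++ (W6, W7, W8). All 3 Han ++ ewes lay below the other 6. In Han ++ vs. Dorset and in Han BB vs. Han ++, 2 of the 14 did not overlap, beside 11.1% and 9.38% of all tested genes. The log2 fold change was -0.72 in Han ++ vs. Dorset (unadjusted p 0.0269, adjusted p 0.891, edgeR) and 0.70 in Han BB vs. Han ++ (unadjusted p 0.0319, adjusted p 0.999). VDR, the vitamin D receptor, was at 5.6 to 7.26 CPM in Han BB and at 8.25 to 11.3 CPM in Han ++, with Dorset between 5.42 and 10.9. TSHR, the thyrotropin receptor and a relative of FSHR and LHCGR, was at 4.09 CPM in D4 and at 0 to 0.829 CPM in the other 8 libraries.

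Over all 7 lists of receptor partners and targets, 79 genes were tested and edgeR called 0 in each comparison. At an unadjusted p under 0.05 it counted 4 in Han BB vs. Dorset, 6 in Han ++ vs. Dorset and 1 in Han BB vs. Han ++; these counts stand beside the shares over all genes given above. limma called 0 of the 79 too, with 12, 8 and 5 at an unadjusted p under 0.05. DESeq2, which gave a p to 84 genes of the lists, called 0, with 5, 6 and 1 at that p.

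Downstream of the gonadotropin receptors, 17 genes of G protein and cyclic AMP signalling were tested, of which 12 were below 0 in Han BB vs. Dorset and 12 in Han ++ vs. Dorset (median log2 fold change -0.22 and -0.20). The shares below 0 over all tested genes were 50.6% and 55.9%, and the same Dorset ewes stand in both comparisons. None of the 17 had an unadjusted p under 0.05 in edgeR. ADCY9, an adenylyl cyclase, was at 27.0 to 33.0 CPM in Han BB and at 39.0 to 50.0 CPM in Han ++, with Dorset between 27.7 and 52.5. In Han BB vs. Han ++ its unadjusted p was 0.0675 (adjusted p 0.999, edgeR). Of the 17, 2 did not overlap in Han BB vs. Dorset, 0 in Han ++ vs. Dorset and 2 in Han BB vs. Han ++. The shares over all tested genes were 8.79%, 11.1% and 9.38%. PRKAR2B, a regulatory subunit of protein kinase A, varied within groups, at 77.2, 218 and 261 CPM in Dorset (D4, D5, D6), 84.1, 63.5 and 229 in Han BB (W1, W2, W4) and 113, 82.0 and 90.3 in Han ++ (W6, W7, W8). PRKAR1A was at 253 to 325 CPM in Han ++ and at 308 to 561 CPM in Dorset, with an unadjusted p of 0.0918 in this comparison (adjusted p 1, edgeR).

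Chaperones and coregulators of the steroid receptors had 16 genes tested, and none had an unadjusted p under 0.05 in edgeR. STIP1, a co-chaperone that links HSP70 and HSP90, was at 80.3 to 149 CPM in Han BB and at 120 to 219 CPM in Dorset (log2 fold change -0.56, unadjusted p 0.105, adjusted p 0.98, edgeR). PTGES3, the HSP90 co-chaperone p23, was highest in W4 and D6, at 402 and 373 CPM, while the other 7 libraries held 119 to 230 CPM. FKBP5, a co-chaperone and a target of the glucocorticoid receptor, was highest in W4 (604 CPM) and D6 (402 CPM) and lowest in D4 (150 CPM), the library in which NR3C1 was lowest.

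Of 15 tested genes of JAK-STAT signalling below the prolactin and growth hormone receptors, 11 were below 0 in Han BB vs. Dorset and 10 in Han ++ vs. Dorset. Over all tested genes, 50.6% and 55.9% were below 0, and both comparisons use the same Dorset ewes. SOCS2, a feedback inhibitor of growth hormone signalling, was at 26.7, 17.5 and 24.4 CPM in Dorset (D4, D5, D6) and at 12.9, 16.3 and 14.3 CPM in Han ++ (W6, W7, W8), without overlap (log2 fold change -0.65, unadjusted p 0.0319, adjusted p 0.891, edgeR). Han BB was at 17.1, 17.6 and 14.9 CPM in W1, W2 and W4. SOCS3, a related inhibitor, was at 25.7 CPM in D4 and 14.4 CPM in D5, but at 6.59 CPM in D6, and at 7 to 9.86 CPM in the 6 Han ewes. Its log2 fold change in Han BB vs. Dorset was -1.07 (unadjusted p 0.0302, adjusted p 0.975, edgeR), and the groups overlapped through D6. IRS1, an adaptor of the insulin receptor, was at 43.0 to 50.0 CPM in Han BB, below Dorset (50.9 to 75.3) and Han ++ (61.6 to 70.0). Genes of this list without overlap numbered 1 in Han BB vs. Dorset, 1 in Han ++ vs. Dorset and 2 in Han BB vs. Han ++. The shares over all tested genes were 8.79%, 11.1% and 9.38%.

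Among 9 tested targets of the glucocorticoid receptor, DUSP1, a MAP kinase phosphatase, was at 157, 114 and 70.8 CPM in Dorset (D4, D5, D6), at 56.2 to 84.3 CPM in Han BB and at 65.3 to 74.6 CPM in Han ++. Against Dorset, DUSP1 had a log2 fold change of -0.73 in Han BB (unadjusted p 0.0416, adjusted p 0.975, edgeR) and of -0.70 in Han ++ (unadjusted p 0.0484, adjusted p 0.943). D4, where NR3C1 was lowest, thus had the highest DUSP1. PER1, a clock gene, had an unadjusted p of 0.115 at the lowest, and HSD11B1, the enzyme that regenerates active glucocorticoid, had 0.227.

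The 5 tested targets of the progesterone receptor differed in sign, with 2 above 0 and 3 below 0 in both comparisons with Dorset. SNAP25, a vesicle fusion protein, was at 9.05, 9.06 and 10.2 CPM in Dorset (D4, D5, D6), at 21.4, 13.6 and 19.7 in Han BB (W1, W2, W4) and at 15.3, 19.7 and 14.0 in Han ++ (W6, W7, W8). All 6 Han ewes lay above all 3 Dorset ewes, with log2 fold changes of 0.95 (unadjusted p 0.00694, adjusted p 0.968, edgeR) and 0.79 (unadjusted p 0.0182, adjusted p 0.849). SNAP25 was named for having the lowest p of its list. Of the 5 targets, 2 did not overlap in each comparison with Dorset, where the shares over all tested genes were 8.79% and 11.1%. ADAMTS1, a protease of the ovulating follicle, was at 281, 337 and 258 CPM in Dorset and at 128, 215 and 199 CPM in Han ++ (log2 fold change -0.69, unadjusted p 0.0463, adjusted p 0.943). Han BB was at 163, 199 and 263 CPM and overlapped with Dorset. PRKG2, a cyclic GMP dependent kinase, was highest in W4 (14.0 CPM) and W8 (12.5 CPM).

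Of the 6 tested estrogen receptor targets, OVGP1, the oviductal glycoprotein, was at 479, 371 and 718 CPM in Dorset (D4, D5, D6), 999, 838 and 1120 in Han BB (W1, W2, W4) and 1820, 761 and 1620 in Han ++ (W6, W7, W8). All 6 Han ewes lay above the Dorset ewes, with a log2 fold change of 1.42 in Han ++ vs. Dorset (unadjusted p 0.0042, adjusted p 0.624, edgeR) and 0.92 in Han BB vs. Dorset (unadjusted p 0.0389, adjusted p 0.975). In each of these comparisons 1 of the 6 targets did not overlap, beside 11.1% and 8.79% of all tested genes. OVGP1 also marks oviduct secretory cells, and the 4 tested genes of that list differed in sign. In Han BB vs. Dorset 2 were above 0 and 2 below 0, and in Han ++ vs. Dorset 3 and 1. By edgeR, 2 of the 4 had an unadjusted p under 0.05 in each comparison, both above 0, and 0 were called. DESeq2 called 1 in each (lowest adjusted p 0.0282 and 6.26e-06), and limma 0. TFF3 was at 0.584, 0.586 and 0.949 CPM in D4, D5 and D6. Its levels were 4.46, 8.06 and 1.14 CPM in W1, W2 and W4, and 10.6, 10.9 and 9.58 CPM in W6, W7 and W8. PAX8 and MSX1 were lower on average in Han BB than in Dorset, and MSX1 also in Han ++. Genes of oviduct ciliated cells lay in the direction of OVGP1: 10 of 10 were above 0 in both Han groups, with medians of 1.22 and 1.33. Of these 10, 1 (ROPN1L) was called in Han ++ vs. Dorset by edgeR (adjusted p 0.0446). limma called 0 of the 10 there, and DESeq2 called 3, beside 65 of the 16108 genes to which it gave an adjusted p. By edgeR, 0 of all genes were called with only the 2 groups compared or without any single ewe other than W4. In Han BB vs. Dorset, edgeR and limma called 0 of the 10 and DESeq2 called 1, beside 38 of 15632 genes. Of the 10, 3 did not overlap in Han ++ vs. Dorset and 1 in Han BB vs. Dorset, beside 11.1% and 8.79% of all tested genes. Dorset ewes had a summed CPM of 77.8 to 274 for the ciliated list, the Han BB ewes 138 to 698 and the Han ++ ewes 217 to 467. The part of such cells in the levels of OVGP1, ESR1 and PGR was not tested. PDZK1 was highest in D6 (15.2 CPM), and PGR is described above.

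Markers of granulosa cells, which carry FSHR and ESR2, varied between libraries to different degrees, with an SD of log2 CPM from 0.49 (NR5A2) to 2.58 (CYP19). Of 9 granulosa genes listed, 8 had a row, and their summed CPM ranged over 178 to 377 in Dorset ewes, 94.2 to 251 in the Han BB ewes and 137 to 363 in the Han ++ ewes, with no marker at 0 in all libraries. All 8 were below 0 in both comparisons of Han BB (median log2 fold change -1.12 against Dorset and -0.69 against Han ++), and none of the 8 passed in edgeR, DESeq2 or limma. An unadjusted p of less than 0.05 was seen for 1, 3 and 5 of 8 with edgeR, DESeq2 and limma against Dorset, and for 1, 1 and 2 against Han ++, beside the shares over all genes given above. FSHR and ESR2 were also lower in Han BB on average, and the part of granulosa content in that was not tested. Library by library, the members of the list differed in order. INHBA, an inhibin and activin subunit and the largest part of the sum in most libraries, was at 28.1 CPM in W6, where FSHR was highest, and at 91.3, 109 and 166 CPM in W4, W7 and D6, where FSHR was lowest. CYP19, the aromatase row, was at 0.716 CPM in W6 and at 1.00, 23.1 and 47.2 CPM in W4, W7 and D6. HSD17B1, an estradiol-forming enzyme, was at 6.11 CPM in W6 and at 0.0669, 4.12 and 1.56 CPM in W4, W7 and D6, and AMH, anti-Müllerian hormone, was at 1.77 CPM in W6 and at 0.334, 1.31 and 1.56 CPM in these 3. INHA, the inhibin alpha subunit, was lowest in W4 (13.6 CPM) and highest in W8 (95.2 CPM). INHBB was at 4.25 CPM in W6 and at 8.03, 17.9 and 16.7 CPM in W4, W7 and D6, and NR5A2 at 13.7 and at 19, 21.9 and 23.3 CPM. INHA was at 61.3 CPM in W6 and at 13.6, 69 and 37 CPM in W4, W7 and D6, and FST at 20.9 and at 20.3, 27.8 and 53.6 CPM. HSD17B1 and AMH were thus lower in W4, W7 and D6 than in W6, as FSHR was. INHBA, CYP19, INHBB and NR5A2 were higher there, and INHA and FST were lower in some of the 3 and higher in others. W6 is a single library, and D4 and W8, with FSHR at 13.6 and 13.2 CPM, differed from it. INHBA was at 55.8 and 141 CPM in D4 and W8, and CYP19 at 9.93 and 34.4 CPM. The libraries with the highest FSHR (W6, D4, W8 and D5) also had the highest AMH (1.77 to 2.39 CPM) and HSD17B1 (5.06 to 10.9 CPM). The other markers of the list did not share that set of highest libraries.

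LHCGR kept within 1.80-fold, whereas CYP17A1 and OXT, the most variable of the listed theca and luteal markers, varied 42.5-fold and 413-fold. The least variable of these lists, PTCH1 and SCARB1, varied 4.25-fold and 3.43-fold. CYP17A1, the theca enzyme of androgen synthesis, was at 120 CPM in D4 and 2.81 CPM in W4, where LHCGR was at 33.8 and 27.6 CPM. OXT, oxytocin, which ruminant luteal cells make, was at 1.89 CPM in D5 and 782 CPM in D4, where LHCGR was at 21.5 and 33.8 CPM. Theca markers summed to 129 to 191 CPM in Dorset ewes, 60.9 to 108 in the Han BB ewes and 59.6 to 145 in the Han ++ ewes. All 4 were below 0 in Han BB vs. Dorset (median log2 fold change -1.05) and in Han BB vs. Han ++ (-0.56). LHCGR was above 0 in both, and edgeR called 0 of the 4. Over all tested genes, 50.6% and 46.6% were below 0. Of 7 luteal markers, 4 and 3 were below 0 in these comparisons. Luteal markers summed to 357 to 1890, 481 to 1800 and 891 to 1560 CPM in the same order, with OXT alone at 782 CPM in D4. Luteal markers differed in which group was highest on average. STAR averaged 97.9, 155 and 149 CPM in Dorset, Han BB and Han ++, and SCARB1 82.5, 64.8 and 56.7 CPM. The part of theca or luteal content in the LHCGR levels was not tested.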

How the data were processed

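Whole-ovary RNA of 9 ewes was sequenced in 9 libraries. The authors aligned paired reads with TopHat to Oar_v3.1 (per the submitters' notes and the study's methods), used reads with a unique alignment and deposited a single table of raw gene counts. For tool versions, the counting program and its strand setting, nothing is given in the sources used here, and the library kit is named differently in the labels and in the methods, so reads of overlapping or near-identical genes may be divided in a way that cannot be checked. All 9 count columns were used, and 0 per-sample columns were left out.

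Members were matched by symbol or, for 2 of them, by gene number in a RefSeq gene list of another assembly (ARS-UI_Ramb_v3.0), used for names only. Where a member had 2 rows, the row with more reads was taken as its main row, a choice made with the values known. The members, the lists of partners and targets and the cell marker lists were chosen with earlier results of these data known.

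Counts were filtered with filterByExpr, scaled by TMM and tested with edgeR 4.0.16 (R 4.3.3, quasi-likelihood F-test, all 9 libraries in 1 fit, no covariates), with Benjamini-Hochberg adjustment over 16871 genes. A gene was called at an adjusted p under 0.05 with a change of more than 1.5-fold in either direction. The common biological coefficient of variation was 0.472. Log2 CPM used a prior count of 0.5. Ratios were tested with exact permutation tests over animals (SciPy 1.17.1). Intervals are 95% intervals, and those of read shares are exact binomial. The study's methods used DESeq, which was not used here. DESeq2 1.42.0, limma 3.58.1 (voom with quality weights), DESeq2 size factors, other filters on low counts, fits of only the groups compared and fits without single libraries were the alternatives. The scripts were tested on simulated data before use. In a simulated Han BB vs. Dorset, 39.5% of 190 genes with a set 4-fold change were called, with 7 false calls. The changed genes were drawn at random from the tested genes, so that share does not describe the receptors themselves. A receptor that was not called may still differ between groups. The 95% intervals of the main receptor rows lay between -1.67 and 1.62 on the log2 scale. Nothing says that the animals of a group were unrelated. The p-values set a group difference against a spread estimated from these ewes. In edgeR that spread was estimated over all 3 groups together, with information shared across genes. The text names all members, up to 3 genes per list with the lowest p in any comparison, the 3 most similar genes of the 4 most variable members, and marker genes set beside a member.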

Additional observations from a re-analysis of the deposited data

How the results depend on the processing

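Over 24 receptor differences and 18 alternatives each, 396 of 432 values kept their direction and 36, in 13 differences, turned; no receptor was called, and the lowest adjusted p was 0.409 (GHR, Han BB vs. Dorset, limma). Leaving out single animals turned ESR1 in Han BB vs. Dorset (-0.57 to 0.40), Han ++ vs. Dorset (-0.49 to 0.60, and 0.20 without W8) and Han BB vs. Han ++ (-0.44 to 0.27), and PGRMC1 in the same 3 comparisons (-0.19 to 0.37, and -0.07 without D4, -0.28 to 0.14 and -0.04 to 0.35). In Han ++ vs. Dorset it also turned FSHR (-0.14 to 0.36), LHCGR (-0.29 to 0.05), ESR2 (-0.58 to 0.41), NR3C1 (-0.19 to 0.23, and -0.06 without W7) and PGR (-0.33 to 0.69), and in Han BB vs. Han ++ it turned ESR2 (-0.91 to 0.09) and GHR (-0.03 to 0.29). Under limma, PGRMC1 turned to -0.03 in Han BB vs. Dorset and -0.02 in Han BB vs. Han ++, and ESR1 to 0.12 and ESR2 to -0.44 in Han ++ vs. Dorset. ESR1 in Han ++ vs. Dorset, 0.00 at first, was 0.01 with a minimum of 1 CPM in 3 libraries and with only the 2 groups compared. Without W4 and D6, ESR1 was 0.15 in Han BB vs. Dorset, FSHR, ESR1 and PGRMC1 were -0.11, 0.60 and 0.15 in Han ++ vs. Dorset, and PGRMC1 was -0.04 in Han BB vs. Han ++. With a term for these libraries, the last 4 were -0.11, 0.47, 0.13 and -0.05. The causes were not tested.

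Genes called over the whole table numbered 0, 1 and 0 in Han BB vs. Dorset, Han ++ vs. Dorset and Han BB vs. Han ++. DESeq2 called 38, 65 and 2, and limma 0, 0 and 2. Without a filter on low counts the first comparisons had 2 and 11, without W4 and D6 they had 2 and 22, and with a term for them 1 and 78. Han ++ vs. Dorset had 0 with only the 2 groups compared. Leaving out single animals gave 0 to 1 and 0 to 5, with the highest counts without W4 (1 and 5). Summing the rows of a receptor, an alternative chosen after seeing the data, turned no difference. No paired analysis was possible because the labels give the animals no numbers shared between groups. ESR2 and FSHR rest on the lowest counts, 59 to 302 reads.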

Other observations

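PDE4B and PDE4D, phosphodiesterases that break down the cyclic AMP made below FSHR and LHCGR, varied 13.4-fold and 13.9-fold between libraries, against 2.66-fold and 1.80-fold for these receptors. PDE4B was at 2730, 532 and 203 CPM in Dorset (D4, D5, D6), 294, 1030 and 350 CPM in Han BB (W1, W2, W4) and 644, 344 and 1820 CPM in Han ++ (W6, W7, W8). PDE4D was at 2170, 390 and 156 CPM, 255, 1030 and 328 CPM, and 536, 331 and 1710 CPM in the same order. D4, W8 and W2 had the highest level of each, and they were also the 3 libraries with the largest share of reads on LOC101101865 (14.9%, 7.69% and 3.79%). D6 had the lowest level of each and the lowest share (0.0107%). The log2 fold changes between groups were between -1.05 and -0.07 for both genes, with adjusted p of 0.996 or more in edgeR, and the groups overlapped. These genes were singled out after their values were seen, and the cause of the shared order was not tested.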
